A study of Mus musculus with 6 samples.

Results

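The tumor necrosis factor (TNF) superfamily ligands and receptors were followed in cultured mouse vascular smooth muscle cells that carried either a control adenovirus or one encoding pyruvate dehydrogenase kinase 4 (PDK4). Members were all protein-coding genes of the deposited table whose symbol begins with Tnfsf or Tnfrsf and a number, plus Tnf, Lta, Ltb, Fas, Fasl, Cd40, Cd40lg, Ltbr, Ngfr, Eda2r and Edar. This rule used names and no measured values, and it found 42 genes of the 54532 listed, 16 of them ligands and 26 receptors. The cells came from wild-type (WT) mice and were transduced with an adenoviral vector holding a control plasmid (Ad-Con) or a PDK4 overexpression plasmid (Ad-PDK4), with 3 RNA-seq libraries in each group. Aortic smooth muscle cells had been isolated from the abdominal aorta of 10-week-old animals and used between passages 4 and 8. Both groups received 1 μM angiotensin II for 48 h after transfection, so there was no group without angiotensin II and none without virus. Wild-type mice of the animal experiments were C57BL/6J, and the donors of these cultures were not listed apart from them. The PDK4 expression plasmid was made with the primer pair that the primer list gives for the mouse gene, although whether the adenovirus carried the same insert, and how many mice stood behind the cultures, was not given in the sources used here. The legends call the libraries biological replicates, but no label says that they came from separate cultures or mice, so p-values measure only the spread between these libraries, which may be technical.

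TNF superfamily ligands are mostly trimeric membrane proteins, some of which are cut from the cell surface, and each engages 1 or a few receptors. Receptors with a cytoplasmic death domain, such as TNFR1 and Fas, can assemble complexes that activate caspases. Most other receptors bind TNF receptor-associated factors (TRAFs) and signal to NF-κB and mitogen-activated protein kinases, while decoy receptors bind ligand without passing on a death signal. In the vessel wall the family is best known for inflammatory signalling between leukocytes, endothelium and smooth muscle.

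Promoters are shown for the members on which the results turn, namely the 4 members that rose at least 2-fold and kept an adjusted p below 0.05 under every alternative that tested them, and Tnf itself, the founding ligand. Each sequence is the 250 bases before the start of a RefSeq transcript on GRCm38.p6, read 5′ to 3′ on the gene's strand, and for Tnfsf13b and Tnfrsf9, which had more than 1 entry, the window with more motif matches is shown. Capitals mark matches, on either strand, to an NF-κB consensus, to the gamma-activated site TTCNNNGAA, to the interferon-response core GAAANNGAA (TTCNNTTTC when read on the other strand) and to the AP-1 site TGANTCA. The windows are Tnfsf13b chr8:10006383-10006632 (+, across the annotated gene start), Tnfrsf9 chr4:150927749-150927998 (+, inside the annotated gene), Tnfrsf14 chr4:154928078-154928327 (−, inside the annotated gene), Fas chr19:34290409-34290658 (+) and Tnf chr17:35202008-35202257 (−).
Tnfsf13b: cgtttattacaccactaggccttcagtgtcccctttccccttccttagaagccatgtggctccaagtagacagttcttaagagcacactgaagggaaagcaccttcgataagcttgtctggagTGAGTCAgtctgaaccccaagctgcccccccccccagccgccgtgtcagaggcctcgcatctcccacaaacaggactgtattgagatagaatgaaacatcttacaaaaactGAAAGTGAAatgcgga
Tnfrsf9: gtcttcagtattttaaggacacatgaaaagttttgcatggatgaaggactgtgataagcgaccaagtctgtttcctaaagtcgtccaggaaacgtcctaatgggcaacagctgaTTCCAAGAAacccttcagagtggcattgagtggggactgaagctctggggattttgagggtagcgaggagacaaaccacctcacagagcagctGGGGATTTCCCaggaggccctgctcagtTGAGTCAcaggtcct
Tnfrsf14: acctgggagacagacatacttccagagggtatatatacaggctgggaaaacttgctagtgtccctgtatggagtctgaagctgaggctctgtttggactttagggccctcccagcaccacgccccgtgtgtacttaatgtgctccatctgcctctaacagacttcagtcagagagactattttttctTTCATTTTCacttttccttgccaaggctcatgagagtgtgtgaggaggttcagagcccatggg
Fas: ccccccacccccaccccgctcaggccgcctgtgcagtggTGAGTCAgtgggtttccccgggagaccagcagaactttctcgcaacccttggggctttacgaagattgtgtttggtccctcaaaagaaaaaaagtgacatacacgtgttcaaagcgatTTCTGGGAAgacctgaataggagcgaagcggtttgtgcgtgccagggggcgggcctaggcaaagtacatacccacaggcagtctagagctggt
Tnf: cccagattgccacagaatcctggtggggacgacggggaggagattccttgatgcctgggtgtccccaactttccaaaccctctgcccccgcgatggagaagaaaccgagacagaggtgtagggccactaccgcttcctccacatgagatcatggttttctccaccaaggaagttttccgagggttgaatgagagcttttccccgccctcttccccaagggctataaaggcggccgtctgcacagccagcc

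In these windows Tnfrsf9 held 2 overlapping NF-κB matches between 43 and 33 bases before the start, a gamma-activated site and an AP-1 site. Tnfsf13b held an interferon-response core 16 to 8 bases before the start and an AP-1 site further upstream. Tnfrsf14 held an interferon-response core, Fas a gamma-activated site and an AP-1 site, and Tnf had 0 matches to these 4 patterns. Over all 32851 promoter windows of the table, 7.25% held the NF-κB consensus, 7.02% the gamma-activated site, 7.13% the interferon-response core and 6.75% the AP-1 site. Of the 37 windows of members the shares were 10.8%, 21.6%, 16.2% and 16.2% in the same order. Counted by gene, with a match in any of its windows, 4 of the 33 members with an entry held the NF-κB consensus. By the same count 8 held the gamma-activated site, 6 the interferon-response core and 6 the AP-1 site. These are letter matches in short windows and describe the sequence only.

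Expression was deposited as FPKM (fragments per kilobase of gene length, scaled to library size), which allows levels to be compared between genes. The counted fragments behind the values, called reads here, could be recovered as whole numbers and totalled 17588942 to 21861872 per library. A gene was tested when its mean FPKM over the 6 libraries was at least 0.5, which 13423 genes met, and it is said to have risen or fallen when its limma adjusted p (Benjamini-Hochberg over those genes) was below 0.05. Log2 fold changes are Ad-PDK4 over Ad-Con on the log2(FPKM + 0.1) scale, with their SE, and understate the change of low genes. Pdk4 itself had 679, 642 and 646 reads in the Ad-Con libraries and 490, 455 and 572 in the Ad-PDK4 libraries, and was lower under the overexpression label (10.0 ± 0.469 against 7.48 ± 0.162 FPKM, SD, n = 3, log2 fold change -0.42, limma adjusted p = 0.0011). Group names here are therefore those of the labels, and Ad-PDK4 stands for libraries that carry that label. Of 10 smooth muscle markers 5 were tested, of which Acta2 and Tpm2 fell and none rose, and their summed level was 132.0 to 132.2 FPKM under Ad-Con and 78.4 to 86.9 under Ad-PDK4. Acta2 was at 78.0 ± 0.950 against 36.2 ± 2.40 FPKM, whereas the defining contractile genes Myh11 (0.0141 against 0.0456 FPKM) and Tagln (0.341 against 0.292 FPKM) were near 0 in both groups. The untested markers Mylk (0.756 against 0.123 FPKM), Cnn1 (0.466 against 0.247) and Des (0.186 against 0.0468) were lower in every Ad-PDK4 library. Of protein-coding genes with reads and a mean below 0.5 FPKM, 9.99% were. Fibroblast markers were abundant, with 1544 to 1667 against 830 to 924 FPKM in sum (1 of 6 rose and 4 fell).

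Of the 42 members 19 were tested, 18 had reads but too low a mean for the test, and 5 had 0 reads in every library. The test called 13 members higher and 1 lower, and the remaining 5 did not pass. The median log2 fold change of the tested members was 0.52, beside -0.003 over all genes tested. Among all 13423 genes 21.8% rose and 20.8% fell. A rise of at least 2-fold was called for 5 members and a fall of that size for 0, where the background was 3.95% and 2.68%. The 6 libraries did not overlap between groups, with Ad-PDK4 higher, for 15 of the 19, and with Ad-PDK4 lower for 1 (background 27.8% and 26.5%). Tnfsf13b, Tnfrsf9 and Tnfrsf18 reached the filter only through their level under Ad-PDK4 and so had to differ, and they make up 3 of the 5 members past 2-fold. Among the 16 members with both group means of at least 0.5 FPKM, 10 rose and 1 fell with a median log2 fold change of 0.38, beside 21.6% and 20.9% of the 12803 genes under the same limit. Of these 16, 2 (Tnfrsf14 and Fas) rose at least 2-fold, beside 2.98% of those genes. The number of risen members was 10 to 12 when any 1 library was left out.

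**Figure D1:**
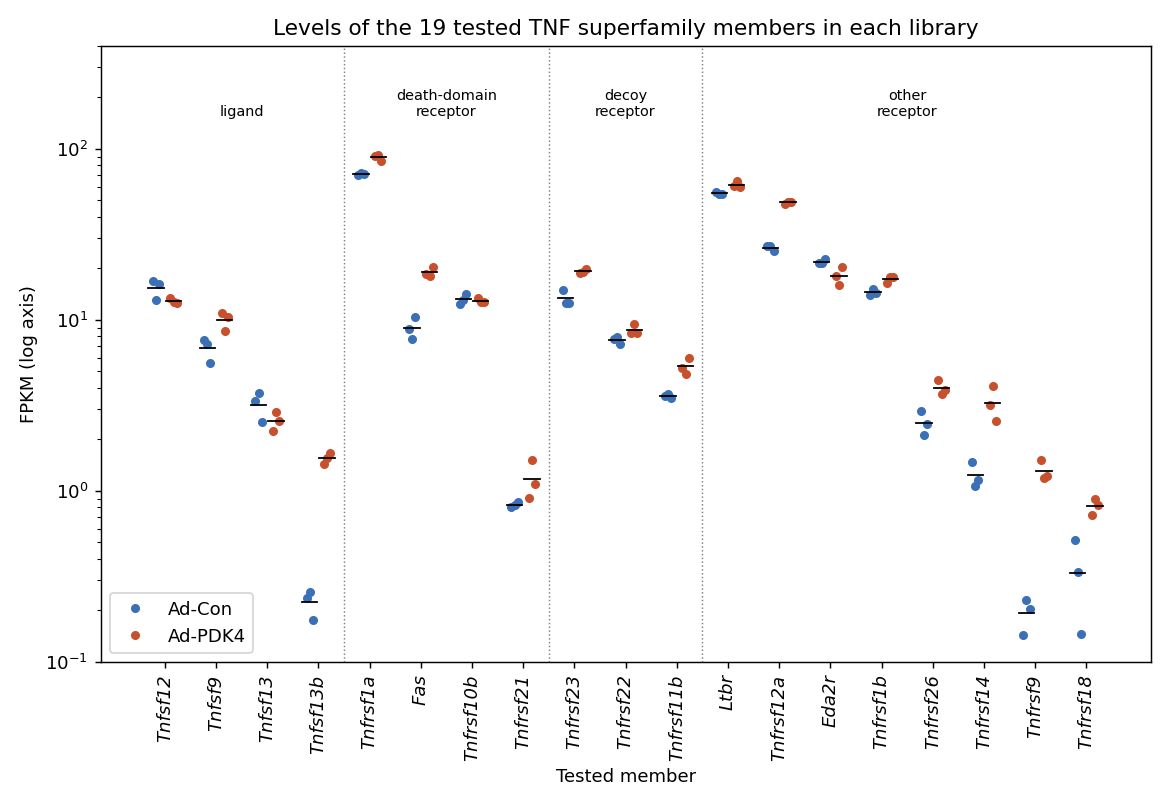
FPKM (log axis) of the 19 tested members in each of the 3 Ad-Con (blue) and 3 Ad-PDK4 (orange) libraries, grouped by role, with a bar at each group mean. Tnfrsf1a and Ltbr lie highest in both groups, and Tnfsf13b and Tnfrsf9 show the widest separation.

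The members differed widely in abundance. Under Ad-Con the order of mean FPKM began with Tnfrsf1a (71.1), Ltbr (55.0), Tnfrsf12a (26.4) and Eda2r (21.9), which did not overlap one another. The next in order, Tnfsf12 (15.4), Tnfrsf1b (14.5), Tnfrsf23 (13.4) and Tnfrsf10b (13.2), overlapped between libraries. Under Ad-PDK4 the first 3 places were the same (89.5, 61.8 and 48.7 FPKM), followed by Tnfrsf23 (19.2), Fas (18.9), Eda2r (18.1) and Tnfrsf1b (17.3), each of which overlapped its neighbour in the order. Summed over all 26 receptors the level was 241 ± 1.14 FPKM under Ad-Con and 312 ± 4.26 under Ad-PDK4. The 16 ligands together made up 25.8 ± 2.12 and 28.2 ± 1.39 FPKM, and their sums overlapped between the groups (24.4 to 28.2 against 26.5 to 29.0). Since these are bulk libraries, fewer cells of a type and less RNA per cell cannot be told apart.

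**Figure D2:**
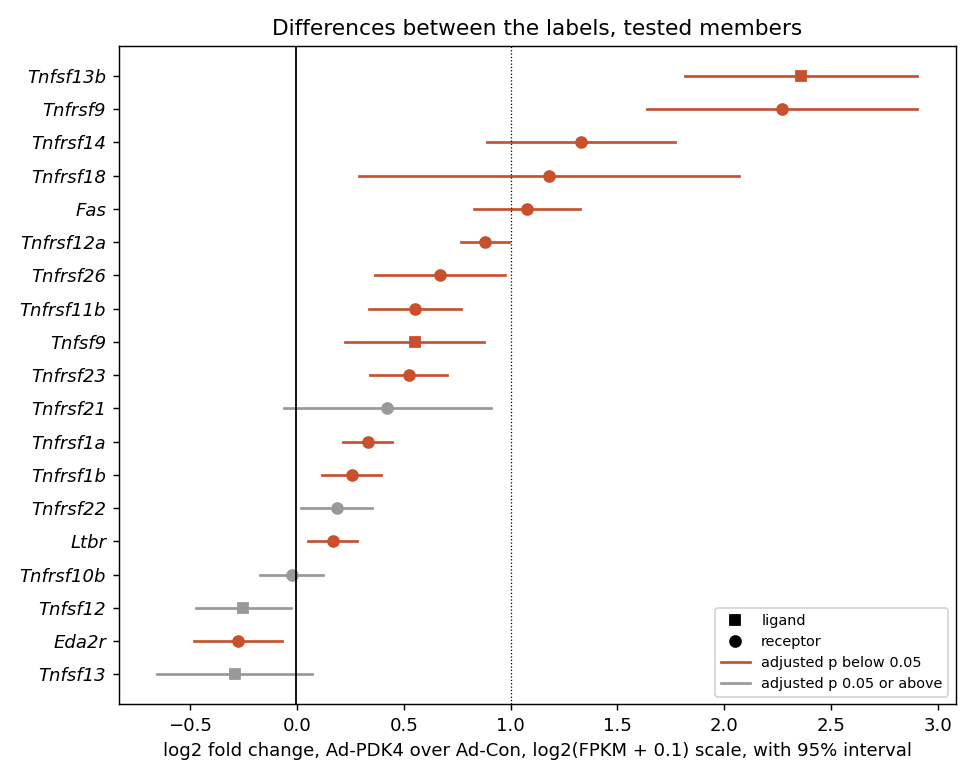
Log2 fold change of Ad-PDK4 over Ad-Con for the 19 tested members with its 95% interval, squares for ligands and circles for receptors, orange where the adjusted p was below 0.05. In orange, 13 members lie above 0, Eda2r is the only one below 0, and the dotted line marks a 2-fold rise.

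Among the ligands, BAFF and the 4-1BB ligand rose, and 2 of the 4 tested ligands did not pass the test. Tnfsf13b encodes BAFF, a survival factor for B cells that is also made by myeloid and stromal cells, and lies at chr8:10006467-10039072 (+, GRCm38, as for all gene coordinates here). It was at 0.236, 0.257 and 0.177 FPKM in the Ad-Con libraries and at 1.43, 1.56 and 1.67 in the Ad-PDK4 libraries (33, 31 and 22 against 179, 187 and 253 reads). Every Ad-PDK4 library lay above every Ad-Con library, the ratio of mean FPKM was 6.95, and the log2 fold change was 2.36 ± 0.24. It met the filter only under Ad-PDK4, and it also passed in the limma fit without the filter (adjusted p = 2.4e-04, beside 1.6e-04 with the filter). None of the 3 receptors of BAFF had more than 2 reads in any library, namely Tnfrsf13c (BAFF receptor), Tnfrsf13b (TACI) and Tnfrsf17 (BCMA).

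Tnfsf9 encodes the 4-1BB ligand, a T cell costimulator, at chr17:57105325-57107757 (+). It was at 7.66, 7.24 and 5.56 FPKM under Ad-Con and at 10.9, 8.59 and 10.5 under Ad-PDK4. The groups did not overlap, and the rise was 0.55 ± 0.14 on the log2 scale (limma adjusted p = 0.016). It missed the threshold when Ad-PDK4 replicate 1 (adjusted p = 0.053) or replicate 3 (0.056) was left out. The opposite-strand non-coding gene Gm11110 overlaps it, shares 11.5% of the 50-base words of the longest Tnfsf9 transcript and had 241, 198 and 188 against 139, 120 and 154 reads. Whether counting used strand was not given in the sources used here, so reads of the 2 genes cannot be told apart where they overlap.

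Tnfsf12 (TWEAK) was the most abundant ligand in both groups, followed by Tnfsf9 and then by Tnfsf13 (APRIL, a relative of BAFF). Tnfsf12 was at 15.4 ± 2.03 against 12.9 ± 0.440 FPKM (log2 fold change -0.25, 95% interval -0.47 to -0.03, limma adjusted p = 0.069) and Tnfsf13 at 3.19 ± 0.609 against 2.57 ± 0.324 (-0.29, -0.66 to 0.07, limma adjusted p = 0.17). In both genes the groups overlapped. Leaving out Ad-Con replicate 2 brought Tnfsf12 past the threshold (log2 fold change -0.36), and leaving out Ad-Con replicate 3 did so for Tnfsf13 (-0.45). The 2 genes lie 0.465 kb apart on chromosome 11, and a read-through gene spanning both, Tnfsfm13, shares 49.0% of the 50-base words of Tnfsf12. Of the words of Tnfsf13, 51.9% occur in Tnfsfm13 or in the antisense gene Tnfsf13os. Tnfsfm13 had 109 to 131 reads per library and did not pass the test (-0.11, limma adjusted p = 0.49). How reads were divided among these genes is therefore uncertain.

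The other 12 ligands were below the filter. Tnf had 0, 0 and 0 reads under Ad-Con and 0, 0 and 2 under Ad-PDK4, that is, at most 2 reads in libraries of at least 17588942. Lta and Ltb, which flank Tnf at distances of 1.16 and 3.06 kb on chromosome 17 and encode the lymphotoxins, had 0 reads in all Ad-Con libraries and at most 3 in any Ad-PDK4 library. Tnfsf4, Fasl, Cd40lg and Tnfsf14, the ligands of OX40, Fas, CD40 and HVEM, had 0 reads in all 6. At this depth a count of 0 allows up to 3 reads, which for Tnf corresponds to 0.0960 FPKM on average over the Ad-PDK4 libraries. These limits cover counting error only.

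Of the untested ligands 3 did not overlap between the groups, with Ad-PDK4 higher for each. The same held for 8.84% of protein-coding genes with reads and a mean below 0.5 FPKM. Tnfsf15 (TL1A, the ligand of death receptor 3) had 3, 2 and 1 reads under Ad-Con and 31, 20 and 42 under Ad-PDK4, at least 9.81-fold higher when the Ad-Con libraries are placed at the floor of 3 reads each. Tnfsf10 (TRAIL) had 0, 2 and 0 against 20, 12 and 18 reads, at least 5.37-fold higher. Tnfsf18 (GITR ligand) had 0, 2 and 0 against 8, 4 and 31 reads, at least 4.28-fold higher, with most of the Ad-PDK4 reads in replicate 3. Without that library, an alternative added after seeing the data, the bound was 2.07-fold. In a limma fit without the filter, over 25202 genes, Tnfsf15 (adjusted p = 0.0030) and Tnfsf10 (0.018) passed the threshold and Tnfsf18 did not (0.069). Tnfsf8 (CD30 ligand) and Tnfsf11 (RANKL) overlapped, with at most 11 and 4 reads in any library.

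**Figure D3:**
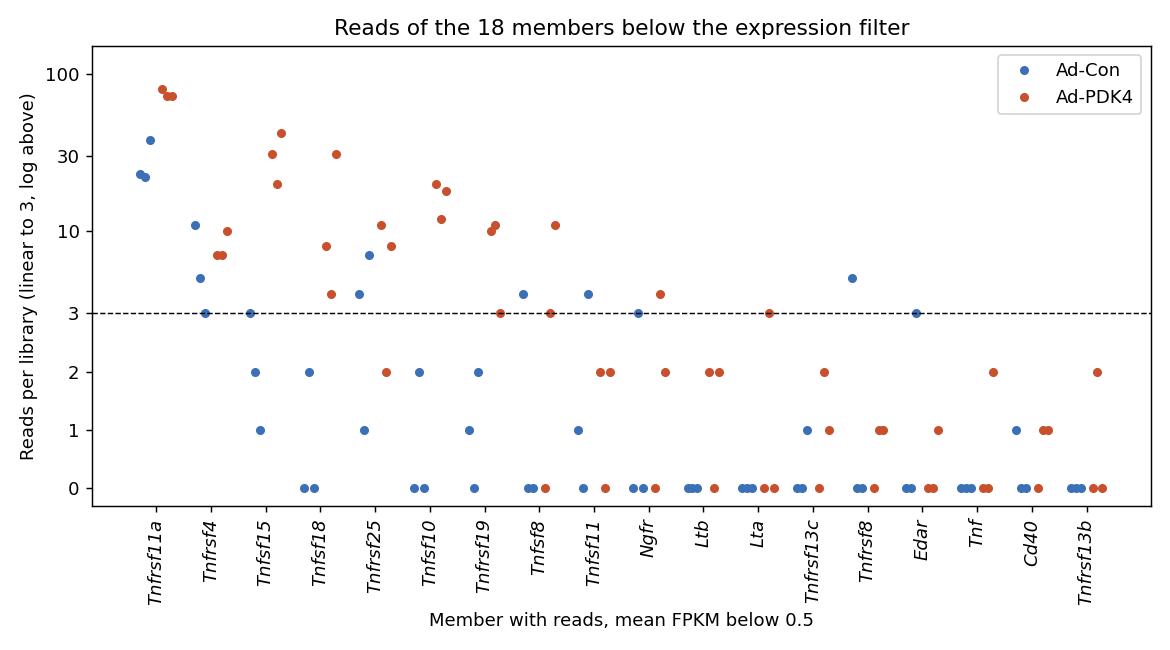
Reads per library (linear up to 3, logarithmic above) of the 18 members with reads but a mean below 0.5 FPKM, blue for Ad-Con and orange for Ad-PDK4, with a dashed line at the floor of 3 reads. Tnfrsf11a, Tnfsf15, Tnfsf18, Tnfsf10 and Tnfrsf19 have Ad-PDK4 points above all their Ad-Con points.

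Among the death-domain receptors, TNFR1 and Fas rose and the TRAIL receptor stayed within its replicate spread. Tnfrsf1a, which encodes TNFR1 at chr6:125349362-125362484 (+) and was the most abundant member, was at 69.9, 72.0 and 71.2 FPKM under Ad-Con and at 90.6, 92.6 and 85.1 under Ad-PDK4. The groups were well apart, although the rise was small (0.33 ± 0.05 on the log2 scale, limma adjusted p = 0.0012). Fas, the receptor of Fas ligand, was at 8.78, 7.75 and 10.4 against 18.5, 18.0 and 20.3 FPKM. The lowest Ad-PDK4 library lay well above the highest Ad-Con library, and the log2 fold change was 1.08 ± 0.11 (limma adjusted p = 1.5e-04). Its own ligand gene had 0 reads.

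Tnfrsf10b (DR5, the TRAIL receptor with a death domain) was at 13.2 ± 0.900 against 13.0 ± 0.314 FPKM, and the interval of its log2 fold change ran from -0.17 to 0.12 (limma adjusted p = 0.79). Of its 50-base words, 9.74% occur in transcripts of 600 other genes. Tnfrsf21 (DR6) was at 0.831 ± 0.0290 against 1.17 ± 0.311 FPKM, without overlap but with a spread-out Ad-PDK4 group (log2 fold change 0.42, interval -0.06 to 0.91, limma adjusted p = 0.14). The other 3 death-domain receptors were below the filter and overlapped between groups. Tnfrsf25 (death receptor 3, which binds TL1A) had 4, 1 and 7 against 11, 2 and 8 reads, Ngfr (the p75 neurotrophin receptor) at most 4 and Edar (the ectodysplasin receptor) at most 3.

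All 3 decoy receptors had higher values in every Ad-PDK4 library, and 2 rose, beside 27.8% and 21.8% of all genes tested. Tnfrsf23, a mouse decoy receptor for TRAIL, was at 15.0, 12.5 and 12.6 FPKM under Ad-Con and at 18.8, 18.9 and 19.8 under Ad-PDK4 (log2 fold change 0.52 ± 0.08, limma adjusted p = 0.0013). Its neighbour Tnfrsf22, the other decoy for TRAIL, was at 7.64 ± 0.326 against 8.72 ± 0.617 FPKM and did not pass (0.19, interval 0.02 to 0.35, limma adjusted p = 0.071). Of the 50-base words of Tnfrsf23, 23.3% occur in Tnfrsf22 or in the antisense gene E230032D23Rik. For Tnfrsf22, 27.7% occur in transcripts of 22 other genes. Part of the reads of either gene could therefore have been split with others. Tnfrsf11b encodes osteoprotegerin, a secreted decoy for RANKL and TRAIL, at chr15:54250619-54278484 (−). It was at 3.61, 3.70 and 3.48 FPKM against 5.21, 4.83 and 5.99, with no overlap (0.55 ± 0.09, limma adjusted p = 0.0023).

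For the TRAIL axis the values stood side by side as follows. The ligand Tnfsf10 went from at most 2 reads to 12 to 20, the signalling receptor Tnfrsf10b differed by less than the spread between replicates, and 2 of the 3 decoys for TRAIL rose. Leaving out Ad-Con replicate 3 or rescaling to TPM (transcript levels made to sum to the same total) turned the sign of the small Tnfrsf10b difference (0.027 and 0.017).

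Of the 8 tested receptors of the remaining class 7 were higher and 1 was lower, beside 21.8% and 20.8% of all genes tested. Without Tnfrsf9 and Tnfrsf18, which met the filter only under Ad-PDK4, this was 5 higher and 1 lower of 6. Of all genes with both group means of at least 0.5 FPKM, 21.6% were higher and 20.9% lower. Tnfrsf12a (Fn14, the receptor of TWEAK and a gene known to rise in injured vessels) was at 26.9, 26.9 and 25.3 FPKM under Ad-Con and at 47.8, 49.1 and 49.1 under Ad-PDK4. The replicates lay close together in each group, and it had the smallest adjusted p of the tested members (log2 fold change 0.88 ± 0.05, limma adjusted p = 6.9e-06). Its gene is at chr17:23675445-23677468 (−). Thus the level of the receptor Fn14 was higher while that of its ligand TWEAK was not shown to change.

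Ltbr, the lymphotoxin beta receptor, was at 56.0, 54.7 and 54.3 against 60.4, 65.1 and 60.0 FPKM. This was the smallest rise among the members past the threshold (0.17 ± 0.05, limma adjusted p = 0.027), and it was lost when Ad-PDK4 replicate 1 or any of the 3 Ad-Con libraries was left out (adjusted p 0.058 to 0.092), with quantile normalization (0.070) and without trend and robust moderation (0.060). Ltbr lies 35.5 kb from Tnfrsf1a on chromosome 6. Tnfrsf1b, which encodes TNFR2, the TNF receptor without a death domain, was at 13.9, 15.1 and 14.4 against 16.4, 17.9 and 17.8 FPKM (0.26 ± 0.06, limma adjusted p = 0.010). Both TNF receptors were therefore higher under Ad-PDK4 in all 3 libraries, while Tnf itself stayed at the floor of detection.

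Tnfrsf9 encodes 4-1BB, an activation-induced costimulatory receptor of T and NK cells, at chr4:150914562-150946102 (+). It was at 0.144, 0.230 and 0.203 FPKM under Ad-Con and at 1.51, 1.20 and 1.21 under Ad-PDK4 (8, 11 and 10 against 75, 57 and 73 reads). The lowest Ad-PDK4 library was several times the highest Ad-Con library, and the log2 fold change was 2.27 ± 0.27. Like Tnfsf13b it met the filter only under Ad-PDK4, and it passed in the limma fit without the filter (adjusted p = 5.1e-04, beside 4.2e-04 with it). The ratio of mean FPKM was 6.80. Camta1, on the opposite strand, overlaps this gene and had 45 to 77 reads per library.

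Tnfrsf14 encodes HVEM, the receptor of LIGHT and of lymphocyte checkpoint proteins, at chr4:154921933-154928563 (−). It was at 1.47, 1.07 and 1.15 against 3.17, 4.09 and 2.55 FPKM, without overlap (1.33 ± 0.19, limma adjusted p = 0.0010). Of the 50-base words of Tnfrsf14, 6.14% occur in transcripts of 290 other genes. Tnfrsf18 (GITR, a receptor of regulatory and activated T cells) was at 0.516, 0.336 and 0.145 against 0.721, 0.900 and 0.832 FPKM, from 4 to 16 reads against 20 to 28. The Ad-Con libraries were widely spread, and the call (1.18 ± 0.38, limma adjusted p = 0.039) was lost without the filter (0.057), which it met only under Ad-PDK4. The call was also lost when any library other than Ad-Con replicate 1 was left out (adjusted p 0.063 to 0.11) and with the replicate number as a block (0.063). The antisense gene Gm16008 shares 18.2% of the 50-base words of Tnfrsf18 and had 5 to 18 reads per library.

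Tnfrsf26, a receptor gene 6.08 kb from Tnfrsf22, was at 2.92, 2.12 and 2.45 against 4.47, 3.69 and 3.87 FPKM (0.67 ± 0.13, limma adjusted p = 0.0047). In the chromosome 7 cluster of Tnfrsf26, Tnfrsf22 and Tnfrsf23, all 3 genes were higher in every Ad-PDK4 library, as were 27.8% of all genes tested. Eda2r, the X-linked receptor of ectodysplasin A2 and a known p53 target, was the only member that fell. It was at 21.6, 21.5 and 22.6 FPKM under Ad-Con and at 18.0, 15.9 and 20.5 under Ad-PDK4, so that the highest Ad-PDK4 library came close to the Ad-Con group. Its decrease (log2 fold change -0.28 ± 0.09, limma adjusted p = 0.038) was kept when Ad-PDK4 replicate 3 was left out and lost when any other library was (adjusted p 0.071 to 0.11), and also without the filter, on the TPM scale or without trend and robust moderation.

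The 8 other receptors of this class were not tested. Tnfrsf11a encodes RANK, the receptor of RANKL, at chr1:105780718-105847981 (+), and had 23, 22 and 38 reads under Ad-Con and 80, 72 and 72 under Ad-PDK4. Its groups did not overlap (0.249 ± 0.0879 against 0.656 ± 0.0989 FPKM), and it passed in the fit without the filter (adjusted p = 0.023). Tnfrsf19 (TROY) had 1, 0 and 2 against 10, 11 and 3 reads, at least 2.72-fold higher with Ad-Con placed at the floor, and did not pass (0.14). Its Ad-PDK4 replicate 3 lay at the floor itself, and the bound was 2.13 to 3.65 with any 1 Ad-PDK4 library left out. Tnfrsf4 (OX40) had 11, 5 and 3 against 7, 7 and 10 reads, and Tnfrsf8 (CD30), Cd40, Tnfrsf13b and Tnfrsf13c had at most 5 in any library. Tnfrsf17 had 0 reads in all 6.

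Of the 18 members with reads that were below the filter, 5 did not overlap between groups with Ad-PDK4 higher and 0 with Ad-PDK4 lower. Among protein-coding genes with reads and a mean below 0.5 FPKM, the shares were 8.84% and 9.99%. Of the 18, 3 passed the adjusted threshold as higher in the fit without the filter. Among all 11779 genes with reads and a mean below 0.5 FPKM, 2.08% did. That share includes non-coding genes, so it is not from the same set as the shares before it. Of the 42 members 12 had no more than 3 reads in any library.

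Ligands and receptors were also read as 23 known pairs. In each group 5 pairs had both genes above 3 reads in at least 1 library. The pairs included RANKL with its decoy osteoprotegerin but left out TRAIL with its decoys Tnfrsf22, Tnfrsf23 and Tnfrsf11b. Those would have added pairs under Ad-PDK4 only, so the equal counts depend on the choice of pairs. In both groups TWEAK with Fn14 and 4-1BB ligand with 4-1BB were among them. Under Ad-Con the others (CD30 ligand with CD30, and RANKL with RANK and with osteoprotegerin) rested on 4 or 5 reads of Tnfsf8, Tnfsf11 or Tnfrsf8 in a single library. Under Ad-PDK4 the others were TRAIL with DR5, TL1A with death receptor 3, and GITR ligand with GITR. Receptors without a detected ligand included the abundant TNFR1, TNFR2, lymphotoxin beta receptor and Fas, whose ligand genes Tnf, Lta, Ltb, Tnfsf14 and Fasl had at most 3 reads per library.

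Markers of leukocytes were examined because several of the risen members are best known from those cells. Of 10 macrophage and dendritic cell markers, Ptprc (CD45, carried by nearly all leukocytes), C1qa, Flt3, Itgam and Itgax had 0 reads in all 6 libraries and Adgre1 at most 3. The list's summed level was 27.8 to 30.9 FPKM under Ad-Con and 24.7 to 27.5 under Ad-PDK4, and of the 3 tested Cd14 rose and Cd68 fell. Of 8 T and NK cell markers 7 had at most 3 reads per library, Cd3e and Cd3d among them at 0. The sum of that list was 0.191 to 0.203 against 0.408 to 0.718 FPKM and was made up mostly of Lck. Of 6 B cell markers 4, Ms4a1 and Cd79b included, had 0 reads, and the list summed to 0.0393 to 0.265 against 0.154 to 0.357 FPKM. Endothelial markers summed to 0.634 to 0.827 against 0.924 to 1.18 FPKM, with Tek and Erg at no more than 3 reads. Below the filter, Csf1r (0.258 ± 0.143 against 0.640 ± 0.0804 FPKM), Pax5 (0.00185 against 0.139) and Lck (0.171 ± 0.0189 against 0.532 ± 0.152) were higher in every Ad-PDK4 library. Of protein-coding genes with reads below the filter, 8.84% were. Cd79a overlapped (0.165 against 0.0878 FPKM). Among the tested markers of these lists Cd14, Lyz2 and Kdr were higher in every Ad-PDK4 library and Cd68 was lower. The part of these markers, of Acta2 and of the fibroblast markers in the members' differences was not tested.

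Genes that act downstream of TNF receptors or control their release were taken from 4 lists of 57 genes in all, 56 of which were tested. Of these 32 rose and 3 fell, against 21.8% and 20.8% of all genes. A rise of at least 2-fold was called for 7 and a fall of that size for 0, against 3.95% and 2.68%. The same shares of all genes stand beside the counts of the single lists below. The median log2 fold change of the 56 was 0.33. The lists were chosen with earlier results of these data known, so these counts describe them and do not test an excess. The number that rose was 30 to 32 with any 1 library left out, and the number that fell 1 to 4.

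**Figure D4:**
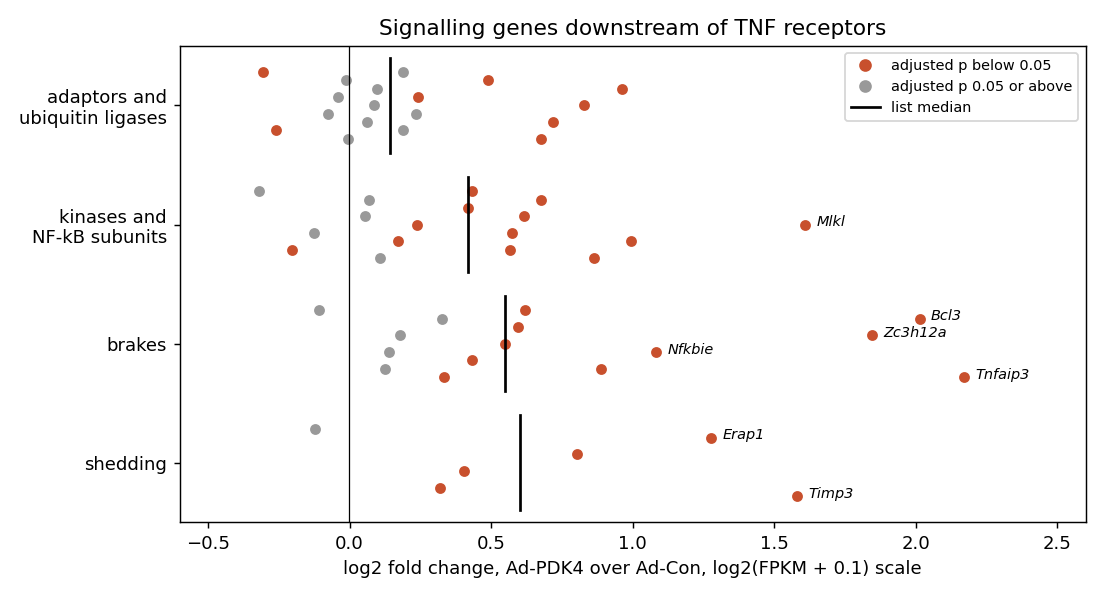
Log2 fold change of Ad-PDK4 over Ad-Con for the 56 tested genes of the 4 lists, 1 point per gene, orange where the adjusted p was below 0.05, with a vertical line at each list's median. Genes that changed at least 2-fold are named, and all 7 of them lie to the right of 0.

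The list named brakes on TNF receptor signalling had 10 of 15 genes higher and none lower, with a median of 0.55. It does not hold inhibitors alone, since Bcl3, a regulator of NF-κB dimers, was counted in it. Tnfaip3 encodes A20, a ubiquitin-editing enzyme induced by NF-κB that dampens the TNFR1 complex, and was at 1.98, 1.84 and 1.75 FPKM under Ad-Con and at 8.21, 8.67 and 9.23 under Ad-PDK4 (2.17 ± 0.08, limma adjusted p = 1.0e-06). Bcl3, an IκB-like regulator of NF-κB dimers, was at 3.99 ± 0.324 against 16.4 ± 1.22 FPKM (2.01 ± 0.08, limma adjusted p = 1.5e-06). Zc3h12a, an RNase that degrades inflammatory transcripts, was at 1.67 ± 0.273 against 6.27 ± 1.03 FPKM (1.85 ± 0.15, limma adjusted p = 5.4e-05). For each of these 3 the lowest Ad-PDK4 library lay far above the highest Ad-Con library.

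Among the kinases and NF-κB subunits 11 of 17 rose and 1 fell (median 0.42). Mlkl, the effector of necroptosis, was at 12.5, 11.3 and 11.9 against 38.3, 34.2 and 37.0 FPKM (1.61 ± 0.06, limma adjusted p = 1.3e-06). Relb, the NF-κB subunit of the non-canonical arm, rose by 0.99 ± 0.08 and Map3k8 (TPL2, a kinase upstream of ERK) by 0.86 ± 0.13. Ikbkg, which encodes the regulatory subunit NEMO, fell from 27.1 ± 1.32 to 23.5 ± 0.308 FPKM (-0.20 ± 0.05, limma adjusted p = 0.018), a call lost in 4 of 16 alternatives.

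The adaptors and ubiquitin ligases moved least, with 6 of 18 tested genes higher and 2 lower (median 0.14). The 3 with the largest rise were Daxx, a Fas-binding protein (0.96 ± 0.07), Rnf31, the catalytic subunit of the linear ubiquitin ligase (0.83 ± 0.06), and Birc3, the ligase cIAP2 (0.72 ± 0.10). Tradd, the adaptor that binds the death domain of TNFR1, fell from 21.3 ± 0.155 to 17.8 ± 1.07 FPKM (-0.26 ± 0.06, limma adjusted p = 0.0081). Traf5 fell from 2.80 ± 0.137 to 2.25 ± 0.217 FPKM (-0.31 ± 0.10, limma adjusted p = 0.046), and this was lost in 9 of 15 alternatives. Traf1, a gene known as an NF-κB target, was not tested, with a mean of 0 FPKM under Ad-Con and 0.0191 under Ad-PDK4.

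Of 6 genes for the shedding of ligands and receptors, 5 rose (median 0.60). Timp3, the inhibitor of the TNF-releasing protease ADAM17, was at 23.6, 24.4 and 21.9 against 68.0, 70.8 and 70.7 FPKM (1.58 ± 0.05, limma adjusted p = 6.0e-07). Erap1, an aminopeptidase that also promotes TNFR1 shedding, rose by 1.28 ± 0.09, and Rhbdf2, which brings ADAM17 to the surface, by 0.80 ± 0.09. Both the inhibitor and the carrier of the protease thus had higher transcript levels in all 3 Ad-PDK4 libraries. Relt, a relative that the naming rule leaves out, did not pass the test (0.42 ± 0.32, limma adjusted p = 0.33).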

How the data were processed

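The authors deposited FPKM per gene and library without pooling replicates. The submitters' processing notes name fastp, HISAT2 2.0.5, featureCounts 1.5.0-p3, DESeq2 1.20.0 and GRCm39, whereas gene coordinates in the table equal GENCODE mouse release 21 (GRCm38) for 98.3% of 54409 matched identifiers and for 41 of the 42 members. The labels and the study's methods name different library kits. FPKM times gene length gave whole reads for 100% of values (tolerance 0.01), and the authors' values already carried median-of-ratios scaling. All 6 libraries were compared as log2(FPKM + 0.1) with limma 3.58.1 (R 4.3.3; trend and robust moderation, no covariates, mean FPKM of at least 0.5, Benjamini-Hochberg adjustment). The procedure was also run on simulated counts, drawn independently for each library with a small part of the genes changed. Those settings differ from these data, so the run does not give the error rate here. Shared sequence is the percent of 50-base words of the longest GENCODE transcript found in another gene's transcripts.

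The members, lists and tests were chosen with earlier results of these data known. Values in every library are given for Tnf and its receptors, each member past the threshold, and each untested member whose groups did not overlap; of each pathway list the 3 largest rises and falls past the threshold are named, and Traf1, Relt and single markers were added after their values were seen. One relative of the family that met this rule is not reported here. Alternatives were other pseudocounts, filters, scalings and moderation, limma-voom on the recovered reads, a replicate block and leaving out each library.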

Additional observations from a re-analysis of the deposited data

How the results depend on the processing

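The count of risen members was 13 and stayed between 12 and 15 across pseudocounts, scalings, moderation, limma-voom and no filter. It was 7, of 11 tested, with a mean FPKM of at least 5, since fewer members were tested there, and 10 to 12 with 1 library left out. The count of members that fell was 1. It was 0 without the filter, on the TPM scale and without trend and robust moderation, 2 with a mean FPKM of at least 5, with quantile normalization and with limma-voom, and 0 to 1 with 1 library left out, and the cause was not tested. Pathway genes higher numbered 26 to 34 against 32 (30 to 32 with 1 library left out), and pathway genes lower 1 on the TPM scale and 1 to 4 with 1 library left out, against 3. Of the 14 called members 10 kept the call under every alternative that tested them, and Tnfsf9, Ltbr, Eda2r and Tnfrsf18 did not. Tnfsf12 passed as lower in 4 alternatives, Tnfsf13 in 1, and Tnfrsf22 as higher on the TPM scale (log2 fold change 0.23). Tnfrsf10b, not called, reversed to 0.017 on the TPM scale and ranged from -0.069 to 0.027 with 1 library left out, positive without Ad-Con replicate 3. Samples with the same replicate number did not deviate together (correlations of -0.05, -0.03 and -0.001), and with the replicate number as a block 12 members rose and 1 fell, and 32 pathway genes rose and 2 fell. The planned edgeR and DESeq2 fits were not run, a choice made because the deposited unit was FPKM. Of the methods for counts only limma-voom was run, on the recovered reads. Low reads limit Tnfrsf18, Tnfrsf9 and the 18 untested members most.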
